A study of Mus musculus with 6 samples.

Results

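The endothelial marker genes of muscle are 10 genes, *Pecam1*, *Cdh5*, *Kdr*, *Flt1*, *Tek*, *Tie1*, *Vwf*, *Eng*, *Emcn* and *Cldn5*, which were taken by their gene symbols from a table of 24532 genes. All 10 were in the table, and all 10 passed edgeR's filter on low counts, as did 13801 genes in all. They were measured by RNA-seq in whole gastrocnemius (GAS) muscle of male C57BL/6 mice at 20 weeks of age, in 6 libraries. WT mice (n = 3 libraries) were *Sirt6* flox/flox without Cre, and *Sirt6* KO mice (n = 3 libraries) were *Myl1-Cre*; *Sirt6* flox/flox, so that both groups carried the floxed alleles. *Myl1-Cre* acts mainly in fast muscle fibers, and endothelial cells are not its target. The comparison asks whether the mRNAs of the capillary wall differed between the muscles of the 2 genotypes.

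Endothelial cells line every blood vessel, and in skeletal muscle most of them sit in the capillaries that run along the fibers. Oxidative fibers are surrounded by more capillaries than glycolytic ones. Muscle fibers release VEGF-A, which acts on receptors of the endothelial cell, and angiopoietins act on a second receptor system that keeps vessels stable. The 10 genes are nearly silent in muscle fibers, so their summed mRNA in whole muscle is used as a gauge of capillary content. In whole tissue, fewer endothelial cells and less of these mRNAs per endothelial cell cannot be told apart.

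The libraries held between 44845763 and 63016899 counts on genes, and 1 count was worth between 0.0165 and 0.0212 CPM (counts scaled to the size of the library). *Sirt6* itself, the floxed gene, was at 3.90, 2.93 and 3.25 TPM (a level scaled to transcript length and depth) in WT and at 9.62, 8.69 and 7.75 TPM in the libraries labelled *Sirt6* KO. It was thus higher where it should be deleted (log2 fold change 1.48 with a standard error, SE, of 0.17; edgeR adjusted p = 0.0113), and every direction below rests on the labels: *Sirt6* KO stands for the libraries labelled so. The table has no values by exon, so reads outside the deleted exons were not told from the rest. *Hbb-bt*, an adult beta-globin gene, had 0 counts in WT library 3 and in *Sirt6* KO libraries 1 and 3, and between 1908 and 2766 counts in the other three. *Hbb-b2*, another beta-globin gene, showed the reverse. It had 534, 1514 and 949 counts in WT library 3 and *Sirt6* KO libraries 1 and 3, and 0 counts in each library where *Hbb-bt* was counted. The labels name 1 strain for all animals, and the source of this split was not tested. The fiber genes *Acta1* (skeletal actin of all fibers) and *Tnnt3* (fast troponin T) had mean levels of 44777 and 43528 TPM.

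Added over the 10 genes, the level was 255, 264 and 114 TPM in WT libraries 1, 2 and 3, and 152, 148 and 150 TPM in the corresponding libraries of *Sirt6* KO. The *Sirt6* KO values lay within 4 TPM of one another, whereas WT library 3 was below all of them and WT libraries 1 and 2 were above all of them. The mean was 211 ± 84.0 TPM in WT and 150 ± 1.71 TPM in *Sirt6* KO (SD, n = 3 each), a log2 ratio of -0.49, and the groups overlapped. Without WT library 3 the log2 ratio was -0.79. Without WT library 1 it was -0.33, and without WT library 2 it was -0.30. With all 6 libraries the log2 ratio depended on the measure. It was -0.39 for summed normalized CPM, -0.34 with equal weight of each gene, and -0.53 for summed FPKM (scaled to length and depth).

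None of the 10 genes passed an adjusted p of 0.05 in edgeR's quasi-likelihood test, against 16.2% of all genes tested. At an unadjusted p under 0.05 there were 3 (*Pecam1*, *Flt1* and *Tek*, all with lower means in *Sirt6* KO), against 35.3% of all genes. DESeq2's Wald test passed 2 of the 10 (*Pecam1* and *Flt1*), against 25.6% of all genes, and limma on log2(TPM + 1) passed 0, against 14.4%. On simulated data DESeq2 made more false calls than edgeR. Those data were drawn with dispersions (spreads between libraries) that edgeR had estimated, so they cannot weigh the calls of *Pecam1* and *Flt1*. In none of the 10 did the normalized CPM of the 3 WT libraries lie apart from that of the 3 *Sirt6* KO libraries, whereas this held for 40.0% of all genes tested. The log2 fold change was below 0 in 7 of the 10 genes and ran from -1.10 to 0.85, with a median of -0.15. Over all genes tested the median was -0.02, and 51.6% of the fold changes were below 0.

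**Figure D1:**
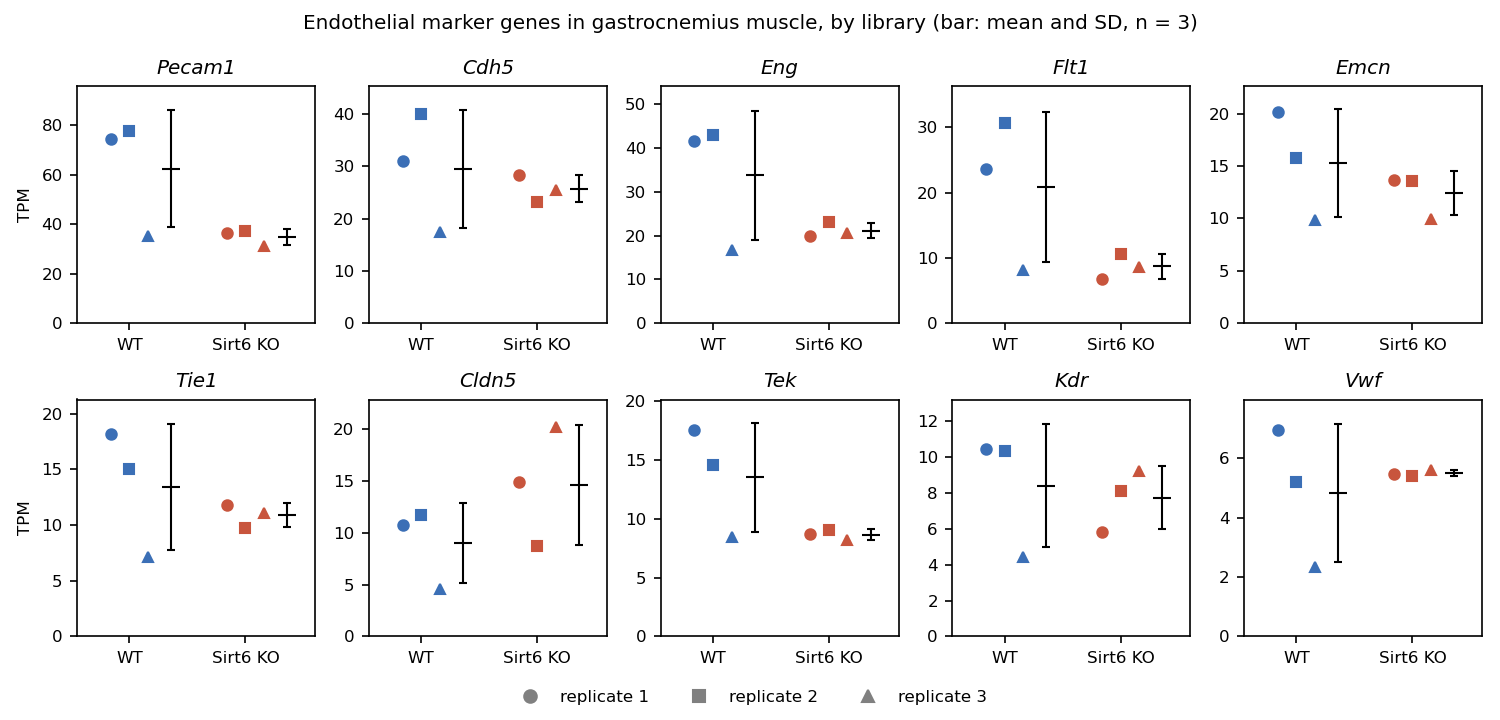
Level of each endothelial marker gene in TPM (y axis, from 0) in the 3 WT libraries (blue) and the 3 libraries labelled Sirt6 KO (red), ordered by mean level. Symbols mark the replicate, and the black bars give mean and SD. WT replicate 3 was the lowest WT library for all 10 genes, and the groups overlapped in each panel.

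The VEGF receptors held both the most negative fold change and the one nearest to 0. *Flt1* encodes VEGF receptor 1, which binds VEGF-A tightly and signals weakly, and *Kdr* encodes VEGF receptor 2, the main signaling receptor. *Flt1* (chromosome 5 of GRCm38, 147561604 to 147726438) was at 23.7, 30.7 and 8.19 TPM in WT and at 6.81, 10.6 and 8.65 TPM in *Sirt6* KO. WT libraries 1 and 2 were above every *Sirt6* KO library, and WT library 3 lay among them. The log2 fold change was -1.10 (SE 0.39, adjusted p = 0.0956), the most negative of the 10. *Kdr* (chromosome 5, 75932827 to 75979072) was at 10.4, 10.3 and 4.43 TPM in WT and at 5.81, 8.10 and 9.24 TPM in *Sirt6* KO. WT library 3 was the lowest of the 6 and the *Sirt6* KO values fell between it and the other WT libraries, with a log2 fold change of 0.04 (SE 0.29, adjusted p = 0.942). Hence the ratio of *Flt1* to *Kdr* was 2.27, 2.97 and 1.85 in WT and 1.17, 1.31 and 0.937 in *Sirt6* KO. This ratio was above every *Sirt6* KO value in every WT library, WT library 3 included. An exact two-sided permutation test gave p = 0.1, its minimum for 3 against 3. The pair was chosen after its values were seen. Of all pairs of tested genes above 0 TPM in every library, 37.0% had a ratio that did not overlap between the groups.

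The upstream sequences of this receptor pair are shown because they differ at the cAMP response element, the site that the transcription factor CREB binds. RefSeq windows of the 250 bases before the transcription start on GRCm38.p6 were given for 7 of the 10 genes (all but *Pecam1*, *Cdh5* and *Vwf*). Capitals mark the full cAMP response element TGACGTCA, the TATA box TATAAA, and the ETS core GGAA in the extended forms CCGGAA and CAGGAA. Each was searched on both strands, so that TTCCGG is CCGGAA read from the other strand. Other sequences around GGAA occur in both windows, and they were not searched or marked. The *Flt1* window is chr5:147726012-147726261 and the *Kdr* window is chr5:75978456-75978705, both on the minus strand and written 5′ to 3′. Both windows lie inside the gene spans given above, since they precede an annotated start within the span and not its outer end.
Flt1: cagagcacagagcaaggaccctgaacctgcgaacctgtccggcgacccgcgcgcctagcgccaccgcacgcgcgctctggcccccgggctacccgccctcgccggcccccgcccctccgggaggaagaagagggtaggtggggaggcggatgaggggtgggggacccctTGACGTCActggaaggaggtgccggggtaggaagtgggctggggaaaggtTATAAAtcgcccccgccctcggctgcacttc
Kdr: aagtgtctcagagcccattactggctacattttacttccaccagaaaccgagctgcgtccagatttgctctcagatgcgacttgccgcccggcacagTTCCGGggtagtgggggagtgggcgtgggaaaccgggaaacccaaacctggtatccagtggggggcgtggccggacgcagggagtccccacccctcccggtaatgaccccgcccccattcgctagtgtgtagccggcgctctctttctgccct
The *Flt1* window held TGACGTCA from base 81 to base 74 before the start and TATAAA from base 31 to base 26. The *Kdr* window held neither, and its 1 CCGGAA lay from base 153 to base 148 before the start. The full element was in 1 of the 7 windows and in 1.55% of 32851 windows of all genes. Its first 5 bases, TGACG, lie on both strands within it, and were found in no other of the 7, against 17.8% of all windows. CAGGAA was in 3 of the 7 windows (*Tek*, *Tie1* and *Emcn*) and in 25.7% of all, CCGGAA in 1 of 7 and in 12% of all, and the GATA motif AGATAA in 0 of 7 and in 9.99% of all. These matches describe letters in a window, and binding of a factor was not measured.

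The angiopoietin receptor *Tek* (Tie2; chromosome 4, 94739086 to 94874976) was at 17.5, 14.6 and 8.47 TPM in WT and at 8.73, 9.06 and 8.17 TPM in *Sirt6* KO. The *Sirt6* KO libraries were within 1 TPM of each other and of WT library 3, and the log2 fold change was -0.50 (SE 0.19, adjusted p = 0.104). *Tie1* (chromosome 4, 118471191 to 118489849), the partner receptor that modulates Tie2 and has no firmly assigned angiopoietin of its own, was at 18.2, 14.999 and 7.15 TPM against 11.8, 9.76 and 11.1 TPM, a log2 fold change of -0.15 (SE 0.25, adjusted p = 0.696). WT library 3 was the lowest of the 6 for *Tie1*, but not for *Tek*. The ratio of *Tek* to *Tie1* was 0.965, 0.974 and 1.18 in WT and 0.738, 0.929 and 0.736 in *Sirt6* KO. It did not overlap between the groups (exact permutation test, p = 0.1, the smallest possible). This pair too was chosen after its values were seen, and 37.0% of all pairs of tested genes did not overlap. *Eng* (chromosome 2, 32646595 to 32682669) encodes endoglin, a coreceptor for ligands of the TGF-beta and BMP family. It was at 41.7, 43.0 and 16.7 TPM in WT and at 19.8, 23.0 and 20.5 TPM in *Sirt6* KO (log2 fold change -0.53, SE 0.27, adjusted p = 0.212). WT library 3 lay below and the other WT libraries well above all *Sirt6* KO values.

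Of the junction and surface proteins, *Pecam1* (CD31, an adhesion molecule used to stain capillaries; chromosome 11, 106654213 to 106715281) was the most abundant gene. It was at 74.4, 77.6 and 35.0 TPM in WT and at 36.6, 37.1 and 31.3 TPM in *Sirt6* KO. WT library 3 lay between the *Sirt6* KO values, and the log2 fold change was -0.70 (standard error 0.23), with the smallest adjusted p of the 10 (0.0765). *Cdh5* (VE-cadherin, the adherens junction protein of endothelium; chromosome 8, 104101613 to 104144504) was at 31.1, 40.0 and 17.5 TPM against 28.3, 23.2 and 25.6 TPM. All 3 *Sirt6* KO libraries fell inside the WT range, and the log2 fold change was -0.06 (SE 0.23, adjusted p = 0.87). *Emcn* (endomucin, a mucin-like surface protein of capillaries and veins; chromosome 3, 137341062 to 137431069) was at 20.1, 15.8 and 9.85 TPM against 13.7, 13.6 and 9.93 TPM, and its log2 fold change was -0.16 (SE 0.21, adjusted p = 0.628).

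*Cldn5* and *Vwf* had the largest positive fold changes. *Cldn5* (chromosome 16, 18776847 to 18778262) encodes claudin-5, a tight junction protein. It was at 10.7, 11.7 and 4.60 TPM in WT and at 14.9, 8.70 and 20.2 TPM in *Sirt6* KO. The library labelled *Sirt6* KO 2 was below WT libraries 1 and 2, the other *Sirt6* KO libraries were above all WT libraries, and the log2 fold change was 0.85 (SE 0.37, adjusted p = 0.152). *Vwf* (chromosome 6, 125552948 to 125686679) encodes von Willebrand factor, the clotting glycoprotein stored in endothelial cells and platelets. It was at 6.94, 5.18 and 2.34 TPM in WT and at 5.47, 5.39 and 5.60 TPM in *Sirt6* KO, which makes it the member with the narrowest *Sirt6* KO values (coefficient of variation 1.90%). Its log2 fold change was 0.35 (SE 0.28, adjusted p = 0.405). Platelet genes are measured beside it, since *Vwf* and *Pecam1* are also platelet genes. *Pf4* (platelet factor 4) was at 8.38 ± 3.52 TPM in WT and 7.86 ± 0.247 TPM in *Sirt6* KO (SD, n = 3 each), and *Itga2b* (an integrin of platelets) was at 1.00 ± 0.452 and 0.417 ± 0.214 TPM. None of the 3 platelet genes tested of the 5 listed passed (16.2% of all genes tested did), and their part in the values of *Vwf* and *Pecam1* was not tested.

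TPM is scaled to gene length, so the members can be ordered by level. By the mean over 6 libraries the order was *Pecam1* (48.7 TPM), *Cdh5* (27.6), *Eng* (27.4), *Flt1* (14.8), *Emcn* (13.8), *Tie1* (12.2), *Cldn5* (11.8), *Tek* (11.1), *Kdr* (8.06) and *Vwf* (5.15). *Pecam1* was above *Cdh5*, *Eng* above *Flt1*, and *Kdr* above *Vwf* in 6 of 6 libraries. Other neighbours changed places between libraries. *Cdh5* was above *Eng* in 4, *Flt1* above *Emcn* in 2, *Emcn* above *Tie1* in 5, *Tie1* above *Cldn5* in 4, *Cldn5* above *Tek* in 2 and *Tek* above *Kdr* in 5 of the 6 libraries. The order of the group means was not the same: *Flt1* was above *Cldn5* in WT (20.9 against 9.02 TPM) and below it in *Sirt6* KO (8.69 against 14.6 TPM).

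The spread lay mostly within WT. The coefficient of variation of a member's TPM had a median of 41.6% over the WT libraries and of 9.82% over the *Sirt6* KO libraries, and it was larger in WT for all 10 genes. Over all genes tested the corresponding medians were 17.8% and 12.2%. WT library 3 was the lowest WT library for 10 of 10 members, against 60.9% of all genes tested, and the lowest of all 6 libraries for 7 of 10, against 27.2%. Its TPM values were between 30.1% (*Flt1*) and 54.8% (*Emcn*) of the mean of WT libraries 1 and 2, with a median of 42.9%. The median over the tested genes was 84.9%.

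Left with WT libraries 1 and 2, the comparison gave 5 of 10 members lower in *Sirt6* KO at an adjusted p under 0.05 (edgeR), against 15.7% of all genes lower and 16.7% higher. They were *Pecam1* (log2 fold change -0.93, SE 0.10, adjusted p = 0.00497), *Tek* (-0.68, 0.10, adjusted p = 0.00714), *Eng* (-0.80, 0.11, adjusted p = 0.00662), *Flt1* (-1.44, 0.23, adjusted p = 0.0086) and *Tie1* (-0.40, 0.11, adjusted p = 0.0366). *Cdh5*, *Kdr*, *Emcn*, *Vwf* and *Cldn5* did not pass in this fit either, and no member was called higher. With any of the other 5 libraries left out in place of WT library 3, 0 of 10 members passed. Those fits called few genes in all, 3.15% without WT library 1 and 1.78% without WT library 2. Without *Sirt6* KO libraries 1, 2 and 3 the shares were 0.0568%, 6.21% and 0.0921%. Without WT library 3, 32.5% of all genes passed, against 16.2% with all 6 libraries. The number of calls thus depended on a single WT library over all genes, not for the members alone. Nothing in the labels sets that library apart.

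The split in beta-globin counts cut across the genotypes, and the members were compared within it. Among the libraries with *Hbb-bt* counts, the mean TPM of the library labelled *Sirt6* KO 2 was below that of WT libraries 1 and 2 for 10 of 10 members, with a median log2 ratio of -0.69 (-0.23 over all genes tested). Among the libraries without them, the mean of *Sirt6* KO libraries 1 and 3 was above WT library 3 for 7 of 10 members, with a median log2 ratio of 0.45 (0.08 over all genes). Each class had 1 library on 1 side, so no test was made within it. *Pecam1*, *Flt1* and *Tek* were the members with a ratio below 0 in both classes, at -1.04 and -0.05, -1.36 and -0.08, and -0.83 and -0.00408. With the split as a covariate, a fit chosen after the data were seen, 0 of 10 members passed, against 18.1% of all genes. In that fit *Flt1* had a log2 fold change of -0.65 (standard error 0.26) and *Pecam1* one of -0.48 (standard error 0.17).

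**Figure D2:**
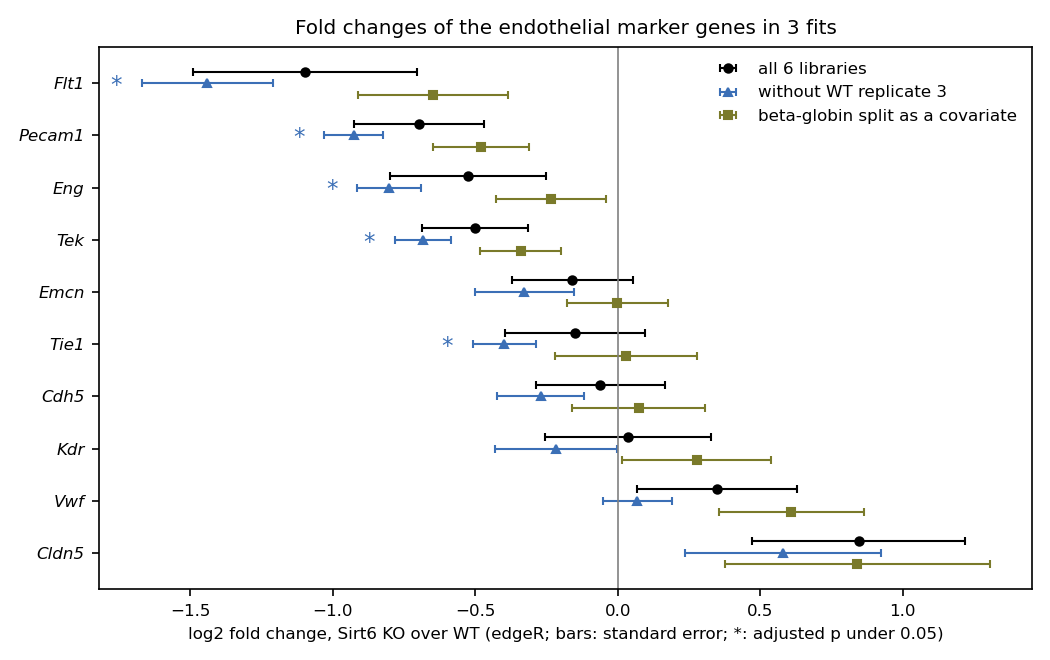
Log2 fold change of Sirt6 KO over WT with its standard error (x axis) for each of the 10 genes (y axis), in the edgeR fit of all 6 libraries (black circles), without WT replicate 3 (blue triangles) and with the beta-globin split as a covariate (olive squares). An asterisk marks an adjusted p under 0.05, which 5 genes reached without WT replicate 3 and none in the other fits.

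Each member was also expressed as a share of the 10-gene sum. *Pecam1* made up 29.2%, 29.4% and 30.7% of the summed TPM in WT and 24.1%, 25.0% and 20.8% in *Sirt6* KO. *Flt1* made up 9.29%, 11.6% and 7.17% in WT and 4.48%, 7.15% and 5.76% in *Sirt6* KO. On the other side, *Cldn5* made up 4.22%, 4.44% and 4.03% in WT and 9.80%, 5.86% and 13.5% in *Sirt6* KO. *Vwf* made up 2.72%, 1.96% and 2.05% in WT and 3.60%, 3.63% and 3.73% in *Sirt6* KO, and *Cdh5* 14.2 ± 1.75% and 17.1 ± 1.52% (SD, n = 3 each). For these 5 genes the shares of the groups did not overlap, 2 being lower and 3 higher in *Sirt6* KO, whereas the shares of *Kdr*, *Tek*, *Tie1*, *Eng* and *Emcn* overlapped. Divided by the same sum, the TPM of 18.8% of all genes tested (those above 0 in every library) did not overlap. That share is not a like background, since the members are part of the sum and share its spread, which other genes need not do. In normalized CPM, without this division, 40.0% of all genes tested did not overlap. The shares add up to the whole, so that a lower share of one gene raises those of the rest.

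Ratios of 2 members are free of that constraint. Of the 45 possible pairs, 23 had a TPM ratio that did not overlap between the groups, against 37.0% of all pairs of such genes, and *Pecam1*, *Flt1*, *Vwf* and *Cldn5* were each in 6 of their 9 pairs. *Pecam1* to *Cdh5* was 2.40, 1.94 and 2.01 in WT and 1.29, 1.599 and 1.22 in *Sirt6* KO. *Cldn5* to *Cdh5* was 0.346, 0.293 and 0.264 in WT and 0.525, 0.375 and 0.791 in *Sirt6* KO. *Vwf* to *Emcn* was 0.345, 0.328 and 0.237 in WT and 0.400, 0.397 and 0.564 in *Sirt6* KO. In all 3 of these ratios WT library 3 stood with the other WT libraries. The pairs shown were chosen after the values were seen, the pairs share genes, and no ratio can reach a p under 0.1 in an exact permutation test of 3 libraries against 3.

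**Figure D3:**
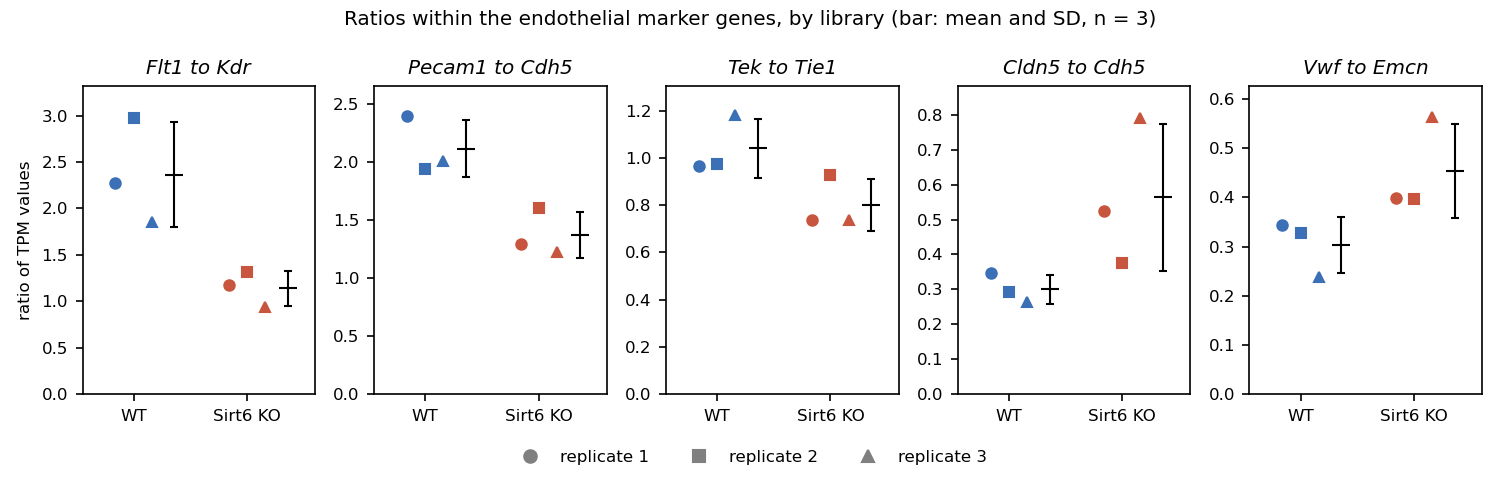
Ratio of the TPM values of 2 endothelial marker genes (y axis, from 0) in the WT (blue) and Sirt6 KO (red) libraries, with the replicate as symbol and mean and SD as black bars. Each of the 5 ratios separated the groups, WT replicate 3 included. The pairs were chosen after the values were seen, and 37.0% of all pairs of tested genes separated the groups.

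The ligands of the member receptors were read from the same fit. Of 12 ligand genes 9 were tested, 1 was lower in *Sirt6* KO (8.39% of all genes were) and 0 were higher (7.85% of all genes). That gene was *Vegfa*, the VEGF-A ligand of Flt1 and Kdr, at 339, 385 and 167 TPM in WT and at 68.8, 132 and 109 TPM in *Sirt6* KO. Every *Sirt6* KO library was below every WT library, and *Vegfa* fell by 1.36 on the log2 scale (SE 0.33, adjusted p = 0.034). Its ratio was below 0 in both beta-globin classes (log2 ratios of -1.46 and -0.91), and it passed with the split as a covariate (-1.10, SE 0.22, adjusted p = 0.0198). It passed in 11 of 18 alternatives, with an adjusted p up to 0.112. Of the fits that left out a library, it passed only without WT library 3 (adjusted p = 0.0114). *Vegfb*, the VEGF-B ligand of Flt1, was at 144 ± 35.4 and 137 ± 21.7 TPM (SD, n = 3 each), and its log2 fold change was 0.07 with an SE of 0.17. The ratio of *Vegfa* to *Vegfb* was 1.97, 2.48 and 1.6001 in WT and 0.557, 0.815 and 0.870 in *Sirt6* KO.

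*Angpt1*, the agonist ligand of Tek that is made by cells around the vessel, was at 11.4, 9.68 and 2.19 TPM in WT and at 2.39, 2.02 and 2.05 TPM in *Sirt6* KO. WT library 3 lay with the *Sirt6* KO libraries, and the log2 fold change of -1.67 (standard error 0.47) just missed the threshold (adjusted p = 0.0513). Without WT library 3 it was -2.08 (SE 0.11, adjusted p = 0.00378). *Angpt2*, which endothelial cells release and which can oppose *Angpt1*, was at 2.29, 1.35 and 1.19 TPM against 0.982, 1.20 and 1.38 TPM (log2 fold change -0.30, SE 0.27, adjusted p = 0.462).

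Among 15 genes whose products bind or act with the members, 13 were tested. Of these, 3 were lower and 0 higher in *Sirt6* KO, against 8.39% of all genes lower and 7.85% higher. *Bmpr2*, a BMP receptor that acts with endoglin, was at 33.9, 32.0 and 32.5 TPM in WT and at 17.4, 17.7 and 17.04 TPM in *Sirt6* KO. Its groups lay far apart with WT library 3 close to the other WT libraries, and it fell by 0.81 on the log2 scale (SE 0.115, adjusted p = 0.0132). It passed in 15 of 18 alternatives. *Nrp2*, a VEGF coreceptor, fell by 0.78 (SE 0.21, adjusted p = 0.0463), and *Ctnnd1* (p120-catenin, which binds the tail of VE-cadherin) fell by 0.50 (SE 0.14, adjusted p = 0.049). Each of these 2 genes passed in 5 of 18 alternatives. The most abundant of the 15, *Ctnnb1* (beta-catenin, at 164 TPM) and *Ctnna1* (alpha-catenin, at 35.7 TPM), did not pass, and they are expressed in many cell types. *Ctnnb1* (log2 fold change 0.26) had every *Sirt6* KO library above every WT library. So did *Jup*, named after its values were seen (log2 fold change 0.35, edgeR adjusted p = 0.0627). Of all genes tested, 40.0% did not overlap in normalized CPM. DESeq2 called 4 of the list lower and 2 higher, against 1801 lower and 1730 higher of 13801 genes tested.

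A second list of 25 pan-endothelial genes was read beside the members. All 25 were tested. In *Sirt6* KO 1 was lower (8.39% of all genes were) and 0 were higher (7.85% of all genes). Of the 25 log2 fold changes 21 were below 0, with a median of -0.54. Its summed TPM was 452, 499 and 214 in WT and 266, 258 and 238 in *Sirt6* KO, the same picture of a low WT library 3 as in the 10 members. WT library 3 was the lowest WT library for 25 of 25 genes. The gene that passed was *Adgrl4* (an adhesion G protein-coupled receptor of endothelium), which fell by 0.89 on the log2 scale (SE 0.19, adjusted p = 0.0267) and passed in 9 of 18 alternatives. Of the fits that left out a library, it passed only without WT library 3. *Cd34* (a surface sialomucin, also on progenitor cells) was at 49.3 ± 17.2 and 29.1 ± 3.52 TPM, and *Ramp2* (the coreceptor for adrenomedullin) at 36.9 ± 12.6 and 28.9 ± 5.14 TPM (SD, n = 3 each). Without WT library 3, 19 of the 25 were lower and 0 higher, against 15.7% of all genes lower and 16.7% higher. DESeq2 called 5 of the 25 lower and 0 higher, against 1801 lower and 1730 higher of 13801 genes tested. The fit with the replicate number as a block called 3 lower and 0 higher, against 1018 lower and 904 higher of all genes.

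Genes of vessel types gave few calls, beside 8.39% of all genes tested lower and 7.85% higher. Of 8 capillary genes 1 was lower, *Ly6c1* (a surface protein of capillary endothelium and of some leukocytes), which fell by 0.79 on the log2 scale (SE 0.17, adjusted p = 0.0272), while *Rgcc* was at 114 ± 39.2 and 64.5 ± 20.8 TPM. The fold changes of 4 of the 8 were above 0, up to 0.60 on the log2 scale for *Aplnr* (the apelin receptor), and their median was 0.015. The capillary genes summed to 491, 624 and 352 TPM in WT and to 344, 323 and 277 TPM in *Sirt6* KO, so that WT library 3 was above every *Sirt6* KO library here. Of 9 arterial genes 0 passed, with *Sema3g* at 5.37 ± 2.66 and 4.60 ± 0.467 TPM and *Hey1* at 4.84 ± 2.23 and 2.88 ± 1.17 TPM. Of 5 venous genes 0 passed, with *Ephb4* at 10.3 ± 4.91 and 7.87 ± 0.124 TPM and *Nr2f2* at 5.03 ± 0.888 and 4.35 ± 0.391 TPM (SD, n = 3 each for WT and *Sirt6* KO, in this order). Of the other venous genes, *Ackr1* (a chemokine-binding receptor of venules) had a log2 fold change of 0.55 and *Selp* (P-selectin) one of 1.03, both with every *Sirt6* KO library above every WT library in CPM, and *Vcam1* (an adhesion molecule) one of -0.26 with the opposite order. Such separation in normalized CPM was seen in 40.0% of all genes tested. Of the 5 lymphatic genes tested 1 was lower, *Lyve1* (a hyaluronan receptor of lymphatic endothelium and some macrophages), which fell by 1.36 (SE 0.26, adjusted p = 0.0191), and *Pdpn* was at 4.45 ± 1.64 and 2.45 ± 0.513 TPM. *Ccl21a*, a chemokine of lymphatic endothelium with near-identical copies that can share its reads, did not pass the filter, with 0, 0 and 3 counts in WT and 117, 5 and 199 counts in *Sirt6* KO. In the fit with no filter on low counts 1 lymphatic gene was higher, as were 830 of all 17190 genes tested in it. The genes *Aplnr*, *Ackr1*, *Selp*, *Vcam1* and *Ccl21a* were named after their values were seen. *Lyve1* passed in 13 of 18 alternatives and *Ly6c1* in 10.

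Cells that lie next to the endothelium were gauged in the same way, beside 8.39% of all genes tested lower and 7.85% higher. Of 9 mural cell genes 1 was lower, *Rgs5* (a pericyte regulator of G protein signaling), at 182, 193 and 71.4 TPM in WT and 70.2, 67.7 and 50.2 TPM in *Sirt6* KO, which fell by 1.10 on the log2 scale (SE 0.30, adjusted p = 0.0481) and passed in 5 of 18 alternatives. *Abcc9*, a potassium channel subunit that muscle fibers also express, was at 104 ± 1.51 and 112 ± 6.58 TPM. The fold changes of 4 of the 9 mural genes were above 0, the highest that of *Notch3* (a receptor of mural cells, named after its values were seen), at 2.98 ± 1.22 and 4.49 ± 0.386 TPM, with every *Sirt6* KO library above every WT library (log2 fold change 0.74, SE 0.25, adjusted p = 0.0855). Of all genes tested, 40.0% did not overlap in normalized CPM. DESeq2 called 1 mural gene higher and 1 lower, against 1730 higher and 1801 lower of 13801 genes tested. The summed TPM of the mural genes was 402, 429 and 230 in WT and 257, 248 and 233 in *Sirt6* KO. None of the 6 fibroblast genes passed (*Dcn* at 509 ± 193 and 285 ± 51.8 TPM, *Col3a1* at 54.9 ± 22.7 and 62.5 ± 17.6 TPM). None of the 5 leukocyte genes tested passed either (*Csf1r* at 5.75 ± 2.85 and 5.98 ± 0.426 TPM, *Cd68* at 4.20 ± 1.80 and 4.32 ± 0.752 TPM).

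Other contents of the tissue moved with WT library 3 too. The counts of calls in these lists stand beside 16.2% of all genes tested. The erythroid genes summed to 1021, 998 and 151 TPM in WT and to 438, 506 and 295 TPM in *Sirt6* KO, with *Hbb-bs* and *Hba-a1* the most abundant, and 0 of the 6 tested passed. The slow fiber list, led by *Myh2* (which marks fast oxidative fibers) and *Myl2*, summed to 6039, 5552 and 478 TPM in WT and to 718, 3104 and 943 TPM in *Sirt6* KO, and 0 of 7 passed. The adipocyte genes, led by *Cfd* and *Adipoq*, summed to 91.2, 101 and 7.25 TPM and to 23.4, 214 and 99.1 TPM, and 0 of 4 passed. A list of 6 abundant fiber genes, of which *Acta1*, *Ckm* and *Ttn* are not limited to fast fibers, summed to 145096, 147139 and 184856 TPM and to 187728, 188138 and 202407 TPM, highest of the WT libraries in WT library 3. Thus WT library 3 had the lowest sum of the 6 for the endothelial, mural, fibroblast, erythroid, adipocyte and slow fiber lists. In slow fiber genes the library labelled *Sirt6* KO 2 lay above the other *Sirt6* KO libraries and below WT libraries 1 and 2. In the 10 endothelial genes it lay with the other *Sirt6* KO libraries (148 TPM). The part of these other cells and fibers in the endothelial values was not tested.

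**Figure D4:**
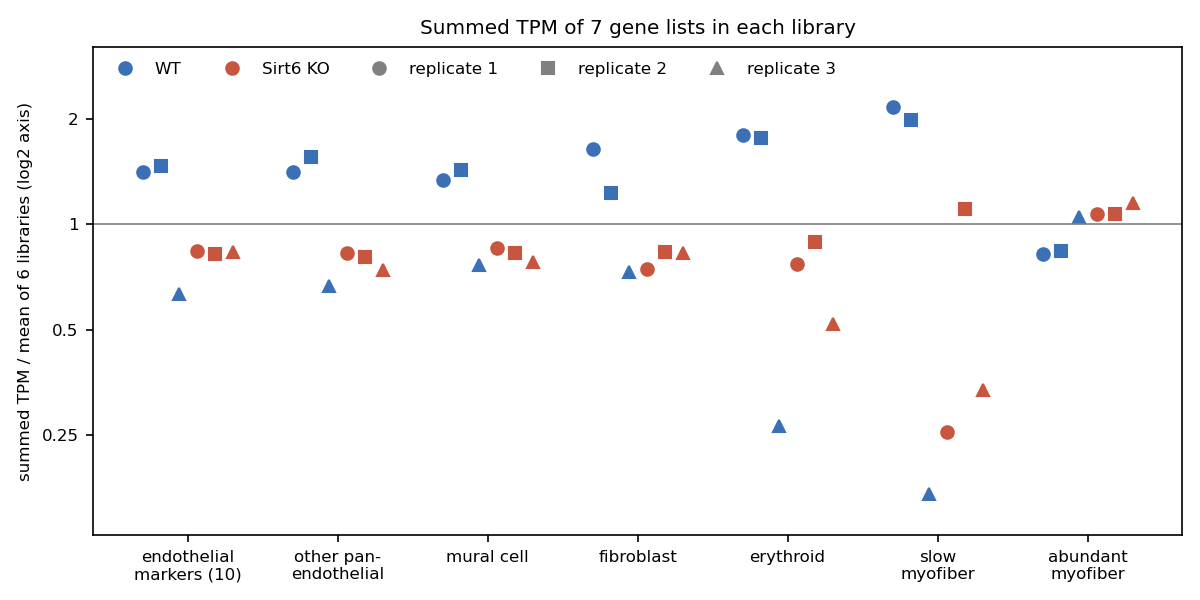
Summed TPM of 7 gene lists in each library, divided by the mean of the 6 libraries (y axis, log2 scale), for WT (blue) and Sirt6 KO (red) with the replicate as symbol. WT replicate 3 was the lowest point of the first 6 lists. Sirt6 KO replicate 2 lay between WT replicates 1 and 2 and the other Sirt6 KO libraries in slow myofiber genes. It lay with the other Sirt6 KO libraries in endothelial genes.

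The 8 genes outside the list whose log2 CPM was most like the members' mean standardized profile were *Caskin2*, *Stard13*, *Acly*, *Ppp1r9b*, *Sdc3*, *Lonrf3*, *Matn2* and *Ephb4*, with Pearson correlations from 0.987 to 0.997 over the 6 libraries. *Caskin2* was at 13.3, 13.4 and 5.69 TPM in WT and at 8.44, 8.14 and 8.25 TPM in *Sirt6* KO. None of the 8 passed the test, and 1 of them, *Ephb4*, was in a list used here. With 6 points, of which WT libraries 1 and 2 lie at one end and WT library 3 at the other, such correlations describe a shared order of libraries that depth and tissue makeup can also give.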

How the data were processed

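RNA of GAS muscle was sequenced in 3 WT and 3 *Sirt6* KO libraries in paired-end reads of 100 bp. The labels name a stranded TruSeq mRNA kit and the methods an unstranded one, and the methods and reporting summary give different *Sirt6* flox lines. The submitters' processing notes name mm10 (GRCm38), HISAT2 2.1.0, Bowtie2 2.3.4.1 and StringTie 2.1.3b, whereas the reporting summary names STAR. The authors deposited raw read counts of genes, made with StringTie and not normalized. Beside them the authors deposited FPKM (scaled to length and depth) and TPM (scaled to a fixed sum in each library). Whether each library is 1 animal is not said in the labels, so p-values measure the spread between libraries.

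Counts were fitted in R 4.3.3 with edgeR 4.0.16 (filterByExpr, TMM, quasi-likelihood, group as the one factor), Benjamini-Hochberg adjustment over 13801 genes and a threshold of 0.05. Standard errors were derived from the test. Levels are TPM, with no pseudocount. Exact permutation tests were two-sided. Alternatives used DESeq2 1.42.0, limma 3.58.1 on log2 FPKM and TPM with pseudocounts of 1 and 0.1, other filters, the replicate number as a block, a lowess trend over GC content (span 0.3, GENCODE M21 transcripts, known for 96.2% of the genes tested), and each library left out. The scripts were tested on simulated data, in which DESeq2 made more false calls than edgeR. The simulated counts used edgeR's dispersions and held few, large changes, unlike the data here, so they do not rank the 2 tools for these data. The members and lists were chosen with earlier results of these data known. Named genes were all members, list genes that passed, the 2 most abundant genes of each of 15 lists, *Vegfa*, *Angpt1*, *Angpt2*, and the 8 genes most like the members. Coordinates and windows are from RefSeq on GRCm38.p6.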

Additional observations from a re-analysis of the deposited data

How the results depend on the processing

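The count of endothelial marker genes past the threshold was 0 of 10 in the main fit and 2 with DESeq2, and it ran from 0 to 5 when 1 library was left out (5 only without WT replicate 3, the lone exception among these fits). It was 0 in the other alternatives. Of the 132 genes in the other lists, 8 passed in the main fit (16.2% of all genes tested) and 20 with DESeq2 (25.6%). With limma, 4 passed on quantile-normalized log2(FPKM + 1) (12.1% of all genes), 4 on log2(TPM + 1) (14.4%) and 5 on log2(TPM + 0.1) (14.8%). With the GC trend removed 4 passed (7.04%), and with the replicate block added 2 passed (4.97%). When 1 library was left out, from 0 to 56 passed, beside from 0.0568% to 32.5% of all genes. The small fold changes of 4 members turned sign, and the cause was not tested. *Cdh5* was at 0.0066 on log2(FPKM + 1) and at 0.073 with the beta-globin split. *Kdr* was at -0.050 on log2(TPM + 1), with and without the TPM minimum of 1, and at -0.046 on log2(TPM + 0.1). *Emcn* was at 0.14 with the GC trend removed and at 0.15 with the block added. *Tie1* was at 0.029 with the beta-globin split. When 1 library was left out, *Cdh5* ran from -0.27 to 0.21, *Kdr* from -0.22 to 0.23, *Emcn* from -0.33 to 0.024 and *Tie1* from -0.40 to 0.065.

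The fit with the replicate block called 0 members and 10 list genes, and 13.9% of all genes against 16.2% without it. Same-numbered libraries had correlations of -0.11, 0.26 and 0.16, and libraries of different numbers had correlations from -0.34 to 0.21. With 3 libraries per group, these values do not settle whether the numbers pair the libraries. The share of all genes that passed ran from 0.0568% (without *Sirt6* KO replicate 1) to 32.5% (without WT replicate 3). The standard errors of the members' fold changes were 0.19 to 0.39 with all 6 libraries, where the -1.10 of *Flt1* did not pass, and 0.0992 to 0.34 without WT replicate 3.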
